A study of Mus musculus with 22 samples.

Results

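The cytosolic ribosomal protein genes encode the proteins of the small (40S) and large (60S) subunits of the ribosome that translates messenger RNA outside the mitochondrion. They were taken by symbol from the deposited table, as Rpl or Rps followed by a number and at most 1 final letter a, x or y, together with Rplp0, Rplp1, Rplp2 and Rpsa. This gave 76 of the 46882 genes, 46 of the large and 30 of the small subunit, and symbols ending in -ps, which name pseudogenes, were left out. The rule does not reach cytosolic ribosomal proteins whose symbols have another form, such as Rps3a1, Fau and Gnb2l1 (Rack1).

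Each ribosome holds a single copy of nearly every one of these proteins, the acidic stalk proteins Rplp1 and Rplp2 being the main exception, so cells make them in near-equal amounts. Their messages are among the most abundant in a dividing cell, and most begin with a run of pyrimidines at the 5′ end, the TOP motif, through which mTORC1 signaling sets how well they are translated. Ribosome assembly also needs RNA polymerase I, which makes the ribosomal RNA, and a large set of nucleolar processing factors, many of them targets of Myc. The measurements below are of messenger RNA and do not show how much protein was made.

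RNA was sequenced from 16 libraries in 6 groups. Normal skin of C57BL/6N wild-type mice, labelled day 23, and MC38 cells, a mouse colon adenocarcinoma line labelled day 0, gave 2 libraries each. Tumors grown from 50000 MC38 cells injected subcutaneously in the flank of female mice 8 to 12 weeks of age gave 3 libraries per group, from wild-type C57BL/6N mice at day 23 and day 46 and from RAG1-/- mice (B6.129S7-Rag1tm1Mom/J) at day 13 and day 23. Mice without Rag1, which is needed to assemble antigen receptor genes, lack mature T and B cells. All tumors grew from the same line, each tumor had been cut in 3 pieces, and the labels do not say whether the replicates of MC38 cells were separate cultures, so p-values measure the spread between these libraries.

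The libraries were QuantSeq 3′ libraries, which read each transcript near its 3′ end, and held 5589151 to 26134241 reads on genes. Levels are the authors' normalized counts, read counts divided by a size factor for each library, and 3 reads correspond to 1.33 to 6.38 normalized counts. Rag1 had 1 to 12 reads in the 6 libraries labelled RAG1-/-, 1 read in 1 of the 6 wild-type tumors and 0 in the others, and since 3′ reads can lie outside the deleted part of the gene this does not check the label. Summed T cell markers stood at 85.0 to 239 normalized counts in wild-type tumors and at 3.93 to 39.1 in tumors labelled RAG1-/-, without overlap. The epithelial markers fixed for the tumor cells summed to 4.28 and 5.87 in the MC38 libraries, with Krt18 and Krt19 at 0 reads, so the epithelial label of the line is not visible in these genes. Skin held 259190 and 266419 normalized counts of keratinocyte markers and 92515 and 141545 of skeletal muscle markers, against at most 312 and 57.7 in MC38 cells, so the skin libraries hold RNA of both. Ddx3y, a gene of the Y chromosome, had 1346 and 1505 reads in the skin libraries and at most 1 in any other library, so the skin held RNA of males while the tumor hosts were female, and tissue and sex cannot be told apart in the comparisons with skin.

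The first property to settle was which reads belong to these genes, since processed pseudogenes of ribosomal proteins are numerous and the authors kept only the primary alignment of a read that fits several places. In the GENCODE annotation (build GRCm38, the same as mm10), 49 of the 76 genes had at least 1 copy elsewhere that matched their last 300 transcribed bases at 95% identity or more over at least 100 bases, and 27 had none. The annotation held 453 such copies, of which 347 were in the table and 333 of those were pseudogenes. In each library 5.35% to 7.61% of the reads on the 76 genes and their copies fell on the copies.

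For 20 genes the copies took at least 10% of the reads of gene plus copies, and for 4 genes they took more than the gene itself. The ends of those 4 coding sequences are printed because the gene and its leading copy cannot be told apart there: in each pair the last 30 bases before the stop codon were the same, 0 differences, and capitals are not used since no base sets the 2 loci apart.
Rpl10 (chrX:74270812-74273135, plus strand) and Rpl10-ps3 (chr9:50344201-50344968, minus strand): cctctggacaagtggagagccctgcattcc
Rpl24 (chr16:55966275-55971435, plus strand) and Gm9385 (chr9:116040593-116041064, minus strand): gtctctgcccccagagttggtgggaaacgc
Rpl35 (chr2:39001580-39005624, minus strand) and Gm2000 (chr1:156366040-156366484, plus strand): tatcctctgcgcaagtatgcagtcaaggcc
Rps6 (chr4:86854660-86857412, minus strand) and Rps6-ps3 (chr9:53689534-53690283, minus strand): tctacttctaagtctgagtccagtcaaaaa

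Over the 16 libraries copies held 99.7% of the reads of the Rpl24 family, 84.8% of the Rps6 family, 75.1% of the Rpl35 family and 52.3% of the Rpl10 family. Rpl24, a protein of the large subunit at the interface of the subunits, had 2 to 19 reads per library, with 3 reads or fewer in MC38 replicate 2, wild-type day 23 replicate 3 and RAG1-/- day 13 replicate 3. It also shares 47.0% of its exonic bases with Gm28037 on the same strand, which is listed at 0 in these libraries, and whether reads were dropped there as ambiguous was not tested. Rps6, the substrate of the S6 kinases, had 82 to 385 reads. The listed levels of both are those of the reads assigned to the gene and are not the level of the message. Large parts also fell on copies for Rpl41, the shortest ribosomal protein (44.1%), Rpl10a of the L1 stalk (38.3%), Rpl19 (34.0%) and Rpl35a (25.5%), whereas Rpl37, Rpl15, Rpl4 and Rps24 had no such copy. Pseudogenes named after Rpl15 and Rps24 are present in the deposited table but were not matched by this search.

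**Figure D1:**
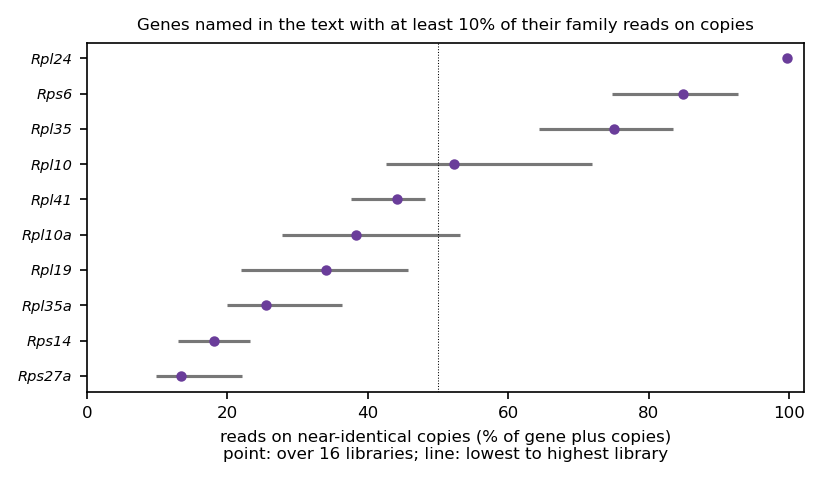
Share of the reads of gene plus copies that fell on near-identical copies (percent, horizontal axis) for the genes named in the text where it reached 10% over the 16 libraries; points are the value over all libraries and lines run from the lowest to the highest library. Rpl24, Rps6, Rpl35 and Rpl10 lie above 50%, and the share for Rpl10 ran from 42.5% to 72.0% between libraries.

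The annotated start sites were read for the pyrimidine run described above. RefSeq promoters (GRCm38.p6) were found for 56 of the 76 genes, with 66 start sites, and a window of 30 bases was read, 10 before the start and 20 from it. A run of at least 7 C or T, the letters of the TOP motif, on the coding strand was present at 31 of 66 starts (47.0%), against 17.9% of all 32851 promoters in the table. The windows below are those of the 4 genes that fell most and of the 3 that rose most in MC38 cells against skin among those with an entry, and the longest run of C or T is in capitals. For genes with several starts the window with the longest run is given.
Rpl15 (chr14:18270967-18270996, minus strand): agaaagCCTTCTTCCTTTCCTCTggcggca
Rps24 (chr14:24490668-24490697, plus strand): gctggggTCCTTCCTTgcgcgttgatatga
Rpl39 (chrX:37085203-37085232, minus strand): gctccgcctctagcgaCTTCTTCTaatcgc
Rps9 (chr7:3704031-3704060, plus strand): cttgTCTCTCTTTgtctcgggcctgagttc
Rpl37 (chr15:5116603-5116632, plus strand): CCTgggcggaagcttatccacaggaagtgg
Rpl27 (chr11:101442235-101442264, plus strand): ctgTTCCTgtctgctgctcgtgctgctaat
Rplp0 (chr5:115559457-115559486, plus strand): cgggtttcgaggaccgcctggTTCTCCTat

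The longest runs were 17, 9, 8 and 9 bases in the first 4 windows and 3, 5 and 7 in the last 3, and a run is a description of the letters, not a mapped start. Of the other called genes with an entry, Rpl35a and Rpl6, both higher, had 13 and 6. The lower genes Rplp2, Rps26, Rps27, Rpl11 and Rpl31 had 10, 9, 9, 7 and 7. Rpl4, Rpl22, Rpl36a and Rps25, also lower, had 6, 5, 5 and 4. Whether run length goes with direction was not tested. A window with a short run shows only that the annotated start lacks these letters nearby.

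The 76 genes together took 7.96% and 7.60% of the reads on genes in skin and 9.82% and 10.3% in MC38 cells. In wild-type tumors the share was 9.80%, 12.0% and 11.8% at day 23 and 11.3%, 11.9% and 9.83% at day 46. In tumors labelled RAG1-/- it was 10.98%, 11.5% and 11.9% at day 13 and 10.3%, 11.5% and 10.8% at day 23. Skin was below each of the other libraries, and the wild-type tumors (11.1% ± 1.02, SD, n = 6) covered the whole range of the tumors labelled RAG1-/- (11.2% ± 0.579, SD, n = 6). The 95% Wilson interval of a library's share reached at most 0.0265 percentage points to either side, which covers counting error only and is far below the spread between tumors.

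Among the 100 genes with the most reads in a library, not corrected for length, the ribosomal protein genes made up 28 and 29 in skin, 40 and 41 in MC38 cells, 39 to 48 in wild-type tumors and 43 to 51 in tumors labelled RAG1-/-. Mitochondrial transcripts took 5.54% to 11.3% of the reads. The 77 nuclear genes of the mitochondrial ribosome, Mrpl and Mrps, took 0.370% and 0.376% in skin, 0.743% and 0.759% in MC38 cells and 0.595% to 0.745% in the tumors. In bulk samples fewer cells of a type and less RNA per cell cannot be told apart, which holds for each level given here.

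**Figure D2:**
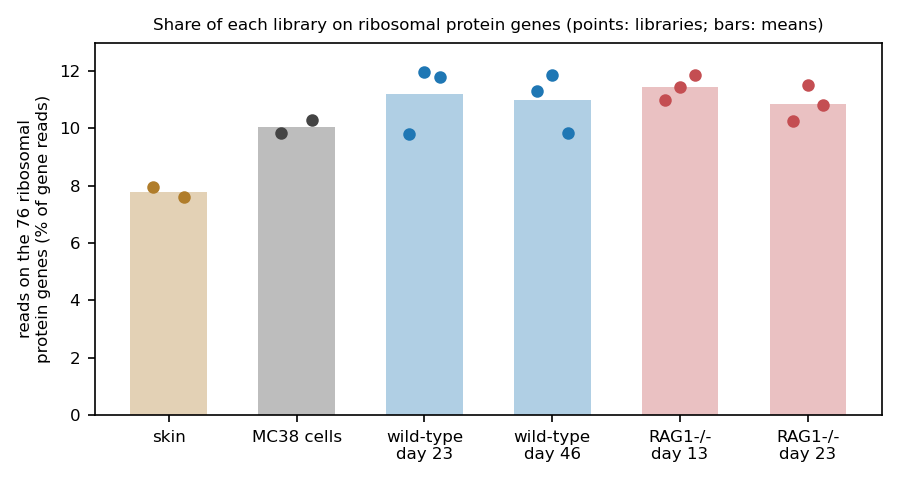
Share of each library's reads on genes that fell on the 76 ribosomal protein genes (percent, from 0), by group; points are libraries and bars are group means. The 2 skin libraries lie at 7.60% and 7.96%, below all others, and the tumor groups overlap.

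MC38 cells were compared with normal skin, which sets the tumor line against the tissue at the injection site. Of the 76 genes 7 were higher in MC38 cells, 15 were lower and 54 were not called by limma, where 20.8% of the 16780 genes tested were higher and 41.2% lower. The median log2 fold change of the 76 genes was -0.13, against -0.40 over all genes tested, and 57 of the 76 lay above the all-gene median. All 7 higher genes belonged to the large subunit, which also had 9 of its 46 genes lower, and the small subunit had 6 of 30 lower and 0 higher. At an unadjusted p under 0.05 limma had 4 small subunit genes higher, Rpsa, Rps13, Rps7 and Rps14, where 22.8% of all genes were higher, and edgeR and DESeq2 called 5 and 6 small subunit genes higher. Over all 16780 genes edgeR called 3739 higher and DESeq2 3571.

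The higher genes were led by Rpl37, a zinc-binding protein of the large subunit, with 19542 and 19502 normalized counts in skin and 51035 and 59324 in MC38 cells. Its log2 fold change was 1.49 (SE 0.13, limma adjusted p = 0.000775), a 2.82-fold difference. Rpl30, which stood at 14478 and 14176 in skin and at 32106 and 33424 in MC38 cells, followed with 1.19 (SE 0.11, limma adjusted p = 0.000904). For both genes the gap between the groups was far wider than that between replicates. Rpl37 has no near-identical copy, and copies held 9.86% of the Rpl30 family.

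The other 5 rose less. Rpl27 rose by 0.74 on the log2 scale (limma adjusted p = 0.00692). Rplp0, the base of the stalk that recruits translation factors, Rpl8, which lies next to the peptidyl transferase center, and Rpl6 each rose by 0.55, with limma adjusted p-values of 0.0465, 0.0212 and 0.0159. Rpl35a, mutated in some patients with Diamond-Blackfan anemia, rose by 0.52 (limma adjusted p = 0.0126).

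Rpl15 led the lower genes with 1088 and 798 normalized counts in skin and 374 and 297 in MC38 cells, a log2 fold change of -1.48 (SE 0.22, limma adjusted p = 0.0040). Rps24, another Diamond-Blackfan gene, stood at 4855 and 4983 in skin and at 2013 and 1992 in MC38 cells, a log2 fold change of -1.30 (SE 0.11, limma adjusted p = 0.000656). Rpl39, which lines the exit tunnel, went from 26249 and 20851 to 10490 and 10709, a log2 fold change of -1.14 (limma adjusted p = 0.00259). Each of these genes was lower in both MC38 libraries than in either skin library.

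Rps9, a protein near the messenger RNA entry site, had 11628 and 12181 normalized counts in skin and 4963 and 6156 in MC38 cells, a log2 fold change of -1.11 (limma adjusted p = 0.00258). Rpl17 and Rpl31, both at the exit of the tunnel, fell by 0.82 and 0.70 on the log2 scale (limma adjusted p = 0.00388 and 0.00826). The other 9 lower genes, among them Rplp2, Rps27, Rpl4, Rps26, Rpl36a, Rpl11, Rpl22 and Rps25, had log2 fold changes between -0.65 and -0.35. Of the other stalk proteins, Rplp1 stood at 29777 and 29698 in skin and at 24624 and 24544 in MC38 cells and was not called, and differences between the stalk genes were not tested. The calls of Rplp0 and Rplp2 were both lost with any 1 of the 4 libraries left out (limma adjusted p = 0.0785 to 0.193 and 0.0546 to 0.137) and under 5 and 4 of the 14 other alternatives.

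Which side most genes fell on depended on the scaling. The normalized counts of a library summed to 1.54e+07 and 1.47e+07 in skin and to 1.07e+07 to 1.22e+07 in the other libraries, so scaling to the same total moved the median of all genes from -0.40 to 0.04 and that of the 76 genes from -0.13 to 0.27, with 26 higher and 5 lower. Scaling to the total over the other genes gave 27 higher and 4 lower, edgeR with TMM 12 and 8, and DESeq2 13 and 15. Relative to the all-gene median the 76 genes stood 0.27 higher as deposited and 0.23 higher after scaling to the same total. Rpl37, Rpl30, Rpl27, Rpl15, Rps24, Rpl39 and Rps9 kept their direction and call under all 14 alternatives that left no library out. With any 1 of the 4 libraries left out, limma called fewer genes over all genes tested as well. Without skin replicate 1 limma called 6 genes, without skin replicate 2 it called 5, and without either MC38 replicate 8. Rpl30, Rps24 and Rpl39 stayed called with any 1 library left out, whereas Rpl37, Rpl15 and Rps9 kept their direction but not the call without skin replicate 1 (limma adjusted p = 0.0688, 0.0835 and 0.0874) or skin replicate 2 (0.0640, 0.0611 and 0.0924). Rpl27 lost the call without skin replicate 1 (limma adjusted p = 0.0923), skin replicate 2 (0.0690) or MC38 replicate 2 (0.0642).

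**Figure D3:**
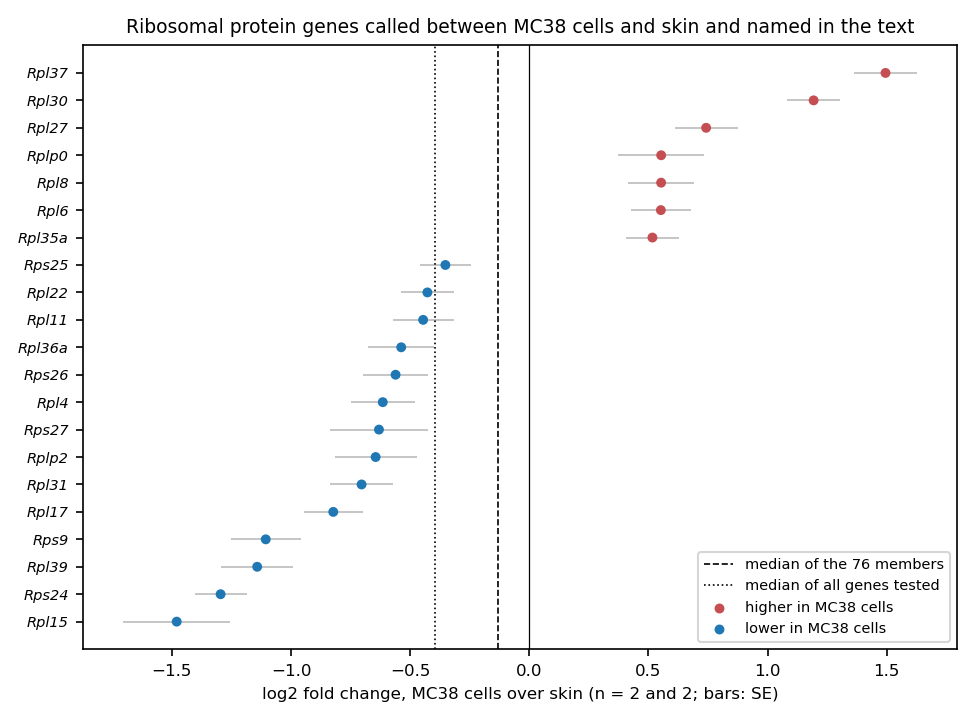
Log2 fold change between MC38 cells and skin for ribosomal protein genes that were called and are named in the text, in order of size, as deposited (points; bars are SE; n = 2 and 2); red genes were higher and blue genes lower at a limma adjusted p under 0.05. Rpl37 (1.49) and Rpl30 (1.19) stand apart at the top and Rpl15, Rps24, Rpl39 and Rps9 (-1.48 to -1.11) at the bottom, while the dashed line at -0.13 and the dotted line at -0.40 mark the medians of the 76 genes and of all genes.

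The lists of genes that build and use ribosomes were read against the same shares of all genes tested, 20.8% higher and 41.2% lower, and no list was tested against the others. Of 44 ribosome biogenesis genes 36 were higher in MC38 cells by limma and 0 lower, 0 were lower also at an unadjusted p under 0.05 or by edgeR or DESeq2, and the list's median log2 fold change was 1.29. The highest were Rrp9 (log2 fold change 2.30), Nop56 (1.95) and Gar1 (1.89), all parts of small nucleolar RNA-protein complexes or their partners. Of 14 RNA polymerase I genes 7 were higher, Polr1a most (1.85), and of 36 initiation factor genes 18 were higher and 2 lower, Pabpc1 having the largest change (1.76). Of 76 mitochondrial ribosomal protein genes tested 36 were higher and 5 lower, with Mrps6 at 4.02. The list of elongation factors and related genes, which includes Eef2k and Tpt1, split into 5 higher and 5 lower of 12. The lower ones were close to the share over all genes, with Eef2, the translocase, at -1.68. Eef1a2, the isoform of muscle and neurons, was at -7.90. Regulators split into 7 higher and 5 lower of 17.

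Of 8 ribosomal protein paralogs 4 were lower by limma, close to the share over all genes, and 0 higher, with 1 higher at an unadjusted p under 0.05, by edgeR and by DESeq2. Rpl3l, the striated muscle form of Rpl3, had 437 and 812 normalized counts in skin and 0 reads in both MC38 libraries, beside the skeletal muscle markers of the skin libraries given above, and the part of muscle in the other differences was not tested. Of the ribosomal proteins under other symbols Fau, the precursor of Rps30, was lower in MC38 cells (log2 fold change -0.77).

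Wild-type tumors were compared with skin by the same test over 16158 genes, where 23.7% were higher and 34.5% lower. Of the 76 genes 9 were higher and 6 lower, with a median log2 fold change of 0.09 against -0.17 over all genes. Scaling to the same total moved the all-gene median to 0.23 and that of the 76 genes to 0.48 and gave 41 higher and 2 lower, while edgeR gave 21 and 4. Over all 16158 genes 5633 were higher and 4031 lower at the same total, and 4298 and 4974 by edgeR. Without skin replicate 2 the number called was 8. With any 1 of the 8 libraries left out, Rpl30, Rpl37, Rpl35a, Rpl8, Rps9 and Rps24 stayed called, and the other 9 genes lost the call in at least 1 case, Rps14 without skin replicate 2 (limma adjusted p = 0.0625) and Rpl15 without skin replicate 1 (0.0681).

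The higher genes again held Rpl30 and Rpl37, with log2 fold changes of 1.19 (SE 0.19, limma adjusted p = 4.97e-05) and 1.15 (SE 0.24, limma adjusted p = 0.000754). Rpl37 ranged from 29138 to 56398 in the 6 wild-type tumors with a median of 46702, above both skin libraries. Rpl35a had 6044 and 6023 normalized counts in skin and 9137 to 15790 in the wild-type tumors, median 12990, a log2 fold change of 1.03 (SE 0.20, limma adjusted p = 0.000371). Rps14, whose reduced dose contributes to a form of myelodysplasia, had 18021 and 13615 in skin and 23766 to 46748 in these tumors, median 31419, a log2 fold change of 1.03 (SE 0.25, limma adjusted p = 0.00202). Copies held 18.1% of the Rps14 family and 25.5% of the Rpl35a family. Rpl8 (0.65) and Rpl27 (0.48) were also higher, and the other 3 were Rpl32, Rps3 and Rps13 with 0.42 to 0.45. With the reads of near-identical copies added, Rps13 stood at 0.0071 and was no longer called (limma adjusted p = 0.978).

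The lower genes were Rps9 (log2 fold change -0.998, SE 0.15, limma adjusted p = 2.33e-05), Rps24 (-0.90, SE 0.16, limma adjusted p = 0.000150), Rpl15 (-0.72), Rps12 (-0.70), Rpl4 (-0.63) and Rpl39 (-0.46). Rps9 ran from 5000 to 7060 in the wild-type tumors, median 5951, below both skin libraries. Rps9 and Rps24 were the 2 lower genes that stayed called after scaling to the same total. MC38 cells and wild-type tumors were compared with the same 2 skin libraries, so the genes called in both comparisons are not independent evidence.

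**Figure D4:**
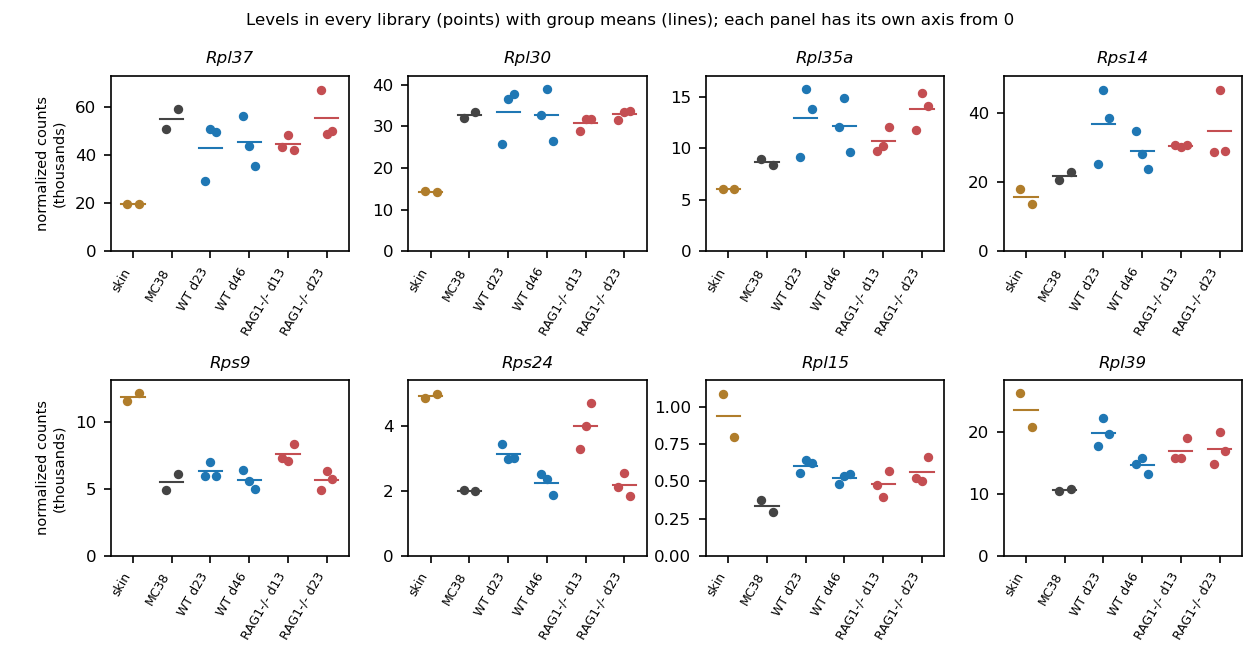
Normalized counts (in units of 1000, each panel with its own axis from 0) of 8 genes in the 16 libraries; points are libraries and lines are group means, WT standing for wild-type and d for day. The upper row shows genes higher in wild-type tumors than in skin, all lower in both skin libraries than in any tumor, and the lower row genes that were lower, with Rps24 at 1821 to 4706 in tumors against 4855 and 4983 in skin.

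Tumors were set against the cultured line to describe what growth in the animal goes with. Of the 76 genes 8 were higher in tumors labelled RAG1-/- and 0 lower, where 14.2% of the 16158 genes tested were higher and 6.42% lower. The wild-type tumors had 7 higher and 0 lower, where 16.7% were higher and 8.13% lower. Both comparisons used the same 2 MC38 libraries. Their medians over the 76 genes were 0.20 and 0.22, against 0.07 over all genes in each. At an unadjusted p under 0.05 limma had 15 and 18 of the 76 genes, all higher, where 20.2% and 22.1% of all genes were higher. edgeR called 10 and 6 and DESeq2 13 and 14, again all higher. Over all 16158 genes edgeR called 2083 and 2487 higher and 1048 and 1367 lower. DESeq2 called 2542 and 2935 higher and 1198 and 1470 lower.

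Rpl10a had the largest change in both, with 3121 and 3617 normalized counts in MC38 cells, 3756 to 8673 in tumors labelled RAG1-/- (median 6895) and 4819 to 8444 in wild-type tumors (median 6439). Its log2 fold changes were 0.95 (SE 0.26, limma adjusted p = 0.0159) and 0.96 (SE 0.26, limma adjusted p = 0.0127). Copies held 38.3% of its family, led by Rpl10a-ps1. Each tumor was above both MC38 libraries.

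The other genes called against both tumor types were Rpl17 (0.71 and 0.70), Rpl19 (0.70 and 0.76), Rpl39 (0.68 and 0.68) and Rpl15 (0.63 and 0.76), all of the large subunit. Rpl39, at 10490 and 10709 in MC38 cells, ran from 14752 to 19955 in tumors labelled RAG1-/- and from 13214 to 22174 in wild-type tumors, without overlap. Rps24 (0.54), Rps15a (0.49) and Rpl36a (0.45) were called against the tumors labelled RAG1-/-, and Rpl28 (0.69) and Rpl32 (0.50) against the wild-type tumors, and the tumor types themselves are compared below. With the reads of near-identical copies added, Rpl19 (0.48, limma adjusted p = 0.101) and Rpl36a (0.44, limma adjusted p = 0.0603) were no longer called against the tumors labelled RAG1-/-, which left 6 genes. The lowest values in wild-type tumors against MC38 cells, none of them called, were those of Rps12 (-0.44), Rpl37 (-0.35) and Rpl6 (-0.34), and Rps12 was called at -0.56 without wild-type day 46 replicate 1. Rpl15, Rpl17, Rpl39 and Rps24 had been lower in MC38 cells than in skin, by the same MC38 libraries.

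The calls rested on those libraries. With either of them left out limma called fewer genes over all genes tested as well, so the drop was not confined to the 76 genes. Without MC38 replicate 1 limma called 1 gene in tumors labelled RAG1-/- and 2 in wild-type tumors, and without MC38 replicate 2 it called 0 in both. Wild-type tumors gave 12 without day 23 replicate 1 and 14 without day 46 replicate 3. Over all genes limma then called 2594 and 2706 higher. Summed fibroblast markers were 5159 and 5803 normalized counts in MC38 cells and 13642 to 48893 in tumors, and macrophage markers 171 and 198 against 15170 to 31876, and their part in these differences was not tested.

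In the related lists counts stand beside 16.7% higher and 8.13% lower of all genes tested in wild-type tumors and 14.2% and 6.42% in tumors labelled RAG1-/-. Of 44 ribosome biogenesis genes 13 were lower in wild-type tumors and 6 in tumors labelled RAG1-/-, with Utp20 at -1.29 and -0.94, and 0 were higher by limma at an unadjusted p under 0.05, by edgeR or by DESeq2. Initiation factors had 8 of 36 lower in wild-type tumors and 0 higher (2 at an unadjusted limma p under 0.05, 0 by edgeR or DESeq2), and in tumors labelled RAG1-/- 5 lower and 1 higher. Eif3c, a subunit of the factor that places the small subunit on messenger RNA, was at -0.71 and -0.82. RNA polymerase I genes had 2 and 3 of 14 lower, with Polr1a at -1.02 and -1.11. Mitochondrial ribosomal proteins had 3 higher and 10 lower of 76 in wild-type tumors and 2 lower in tumors labelled RAG1-/-, and Mrps6 was at -2.18 and -1.58. In the list of 12 elongation factors and related genes Tpt1 was the 1 gene called in each, and it was higher (0.68 and 0.63). Tpt1 is itself a TOP message and is not an elongation factor.

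**Figure D5:**
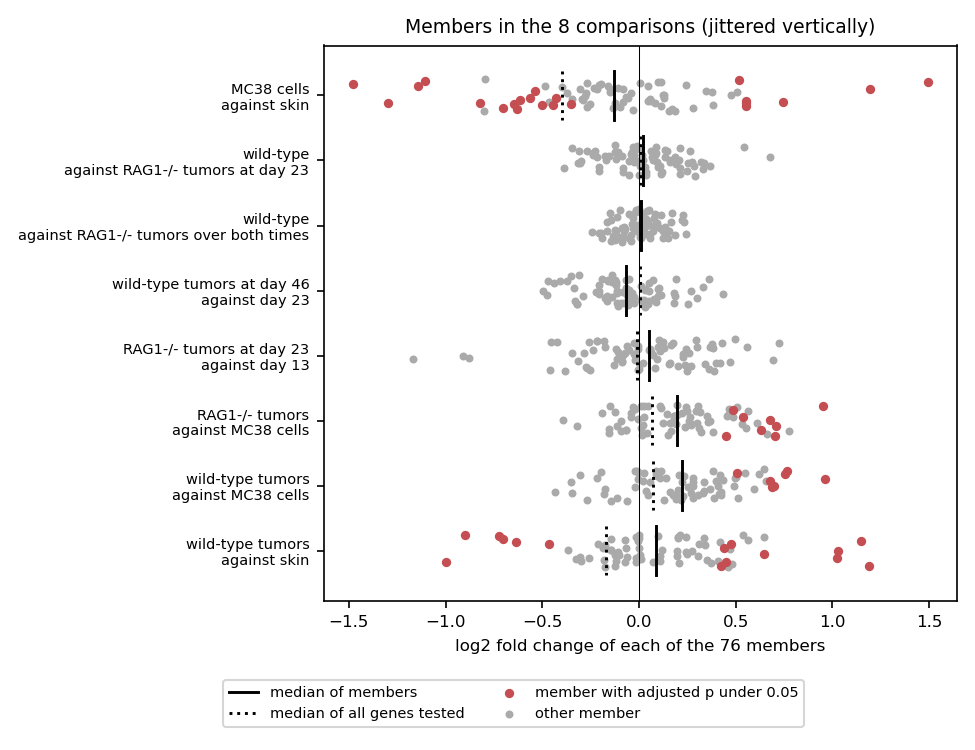
Log2 fold changes of the 76 ribosomal protein genes (points, jittered vertically) in the 8 comparisons; red points passed a limma adjusted p of 0.05, solid lines mark the median of the 76 genes and dotted lines that of all genes tested. In the 4 comparisons between tumor groups no point is red, and in the 2 against MC38 cells all red points are positive.

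Tumors of wild-type and RAG1-/- hosts were compared at day 23, the time they share. The hosts differ in T and B cells and in the strain given above, and the paper reports faster tumor growth in RAG1-/- mice. These cannot be told apart in this comparison. By limma 0 of the 76 genes were called, where 0.231% of 14746 genes tested passed with a higher level and 0.0475% with a lower level in tumors of wild-type hosts. The median log2 fold change was 0.02, and the single values ran from -0.39 to 0.68 with a median SE of 0.19. At an unadjusted p under 0.05 limma had 2 of the 76 genes, where 11.2% of all genes did, and edgeR and DESeq2 called 0. The 2 were Rpl4 (0.68, SE 0.24, limma adjusted p = 0.281) and Rps24 (0.54, SE 0.17, limma adjusted p = 0.228).

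With both times of each host in the comparison 0 of the 76 genes were called by limma, edgeR or DESeq2, and 0 had an unadjusted limma p under 0.05. Of all genes 0.57% were higher and 0.142% lower by limma, and 11.4% had an unadjusted p under 0.05. The values ran from -0.24 to 0.24 with a median of 0.01 and a median SE of 0.14. Day 13 and day 46 are each present in 1 host only, so time and host cannot be told apart in this comparison. The genes named for their roles had overlapping levels in the 2 hosts. Rpl5 and Rpl11, which together can bind Mdm2 and so stabilize p53, had medians of 11147 and 17359 normalized counts in wild-type tumors and of 11980 and 16162 in tumors labelled RAG1-/-. Rps19, the gene most often mutated in Diamond-Blackfan anemia, had 12070 and 11687, and Rps3, at the messenger RNA entry channel, 19937 and 20132.

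Rpsa, also known as the laminin receptor, ran from 13413 to 21058 in wild-type tumors and from 14671 to 20335 in tumors labelled RAG1-/-. Rpl22 had medians of 16729 and 16677, Rpl38, which is needed for translation of a set of Hox messages, 17013 and 17943, and Rpl13a, a part of the interferon-regulated GAIT complex, 27091 and 28311. Of the X-linked genes, Rps4x had medians of 14603 and 12855 and Rpl10, with more of its family reads on copies than on the gene, 5232 and 4363. None of these differences passed a limma p of 0.05 before adjustment.

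In the other lists limma and edgeR called 0 genes at day 23, with up to 6 genes of a list at an unadjusted p under 0.05, and DESeq2 called 1 mitochondrial ribosomal protein gene lower. Over all genes DESeq2 called 158 higher and 81 lower at day 23. Over both times Taf1b, a factor of RNA polymerase I (-0.76, limma adjusted p = 0.0416), and Mrps6 of the mitochondrial ribosome (-0.60, limma adjusted p = 0.0243) were lower in wild-type tumors.

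Day 46 was compared with day 23 in wild-type tumors. By limma 0 of the 76 genes were called, with 0% of all genes higher and 0% lower, edgeR and DESeq2 also called 0 of the 76, and the median log2 fold change was -0.07. At an unadjusted p under 0.05 limma had 6 genes, where 8.55% of all genes did. Rpl13 (-0.41), Rpl27 (-0.47), Rpl39 (-0.44) and Rps24 (-0.49) had negative values, and Rpl36 (0.36) and Rpl41 (0.44) positive ones.

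Day 23 was compared with day 13 in tumors labelled RAG1-/-, where the widest single values of the tumor comparisons lay. By limma 0 of the 76 genes were called, with 0% of all genes higher and 0% lower, 11 had an unadjusted p under 0.05, where 11.7% of all genes did, and the median log2 fold change was 0.05. Rpl4, a protein that lines the exit tunnel, had 15728, 18416 and 18413 normalized counts at day 13 and 7427, 10703 and 5934 at day 23. The log2 fold change was -1.17 (SE 0.24, limma adjusted p = 0.167).

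Rps24 had 3278, 3977 and 4706 normalized counts at day 13 and 2121, 2553 and 1821 at day 23, with a log2 fold change of -0.88 (SE 0.17, limma adjusted p = 0.167). DESeq2 called both genes lower at day 23 (adjusted p = 0.0026 for each), and edgeR called 0 (adjusted p = 0.149 for each). Over all 14746 genes DESeq2 called 90 higher and 116 lower, and edgeR called 0. Neither gene had a near-identical copy in the search of the last 300 bases, though the pseudogenes Rps24-ps2 and Rps24-ps3 are named after Rps24. The same groups were also apart in the share of mitochondrial transcripts, at 5.83%, 5.58% and 6.30% of reads at day 13 and 11.2%, 11.1% and 10.1% at day 23, and in the share of the 10 genes with the most reads, at 7.62% to 8.27% and 12.1% to 13.0%, and the part of these in the changes of Rpl4 and Rps24 was not tested. Rps27a, made as a fusion with ubiquitin, had 17217, 15556 and 21266 at day 13 and 5746, 16727 and 8921 at day 23, with groups that overlapped and a log2 fold change of -0.91 (SE 0.33, limma adjusted p = 0.300). In the other direction Rps16 had a log2 fold change of 0.69 (SE 0.21, limma adjusted p = 0.251).

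Over all 12 tumors the coefficient of variation of the 76 genes had a median of 16.1% and ran from 9.56% for Rpl8 to 53.4% for Rpl24. Among genes whose mean over the tumors reached 1000 normalized counts, 73 of the ribosomal protein genes had a median of 16.04% and 2231 other genes one of 15.7%, which lie close together. After Rpl24 the most variable were Rpl4 (36.9%), Rps27a (35.05%) and Rps24 (30.1%), for which the highest tumor stood 3.10, 3.70 and 2.59 times above the lowest. Rps24 ranged from 1821 to 4706 normalized counts in tumors, against 2013 and 1992 in MC38 cells and 4855 and 4983 in skin.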

How the data were processed

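QuantSeq 3′ libraries were run by the authors on an Ion Proton sequencer. Reads were trimmed with Cutadapt and Trimmomatic (minimum 22 nucleotides), mapped to mm10 by STAR with a Bowtie2 pass, limited to 1 primary alignment each, cleared of ribosomal RNA, counted by HTSeq-count and normalized in DESeq2. The deposited signal is the normalized count per gene. Tool versions, the gene annotation and the strand setting are not given in the sources used here. Near-identical loci and overlapping genes can therefore exchange or lose reads. Rpl24 overlaps Gm28037 on the same strand, and Rpl35, Rpl23a, Rpl31, Rpl5 and Rps25 share 66.2% to 17.2% with genes on the opposite strand.

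In all 16 libraries 100% of values were whole multiples of 1 read within 0.01 reads, so reads and size factors were recovered. Replicates were separate libraries, with a chi-square per degree of freedom of 8.42 to 87.2 between their reads. The 6 columns of the other table, of anti-PD-L1 or IgG2b tumors, match no sample label and were not used, out of 22 samples.

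Differences were tested two-sided with limma (version 3.58.1, R version 4.3.3, trend option on) after adding 1 to the normalized count and taking log2. Genes entered if their mean normalized count reached 5 in the fitted libraries, p-values were adjusted over all of them by Benjamini-Hochberg, and the threshold was 0.05. Fold changes on this scale understate changes of low genes. MC38 cells and skin were fitted alone, tumor comparisons with all 12 tumors, and tumors against MC38 cells or skin with all 16 libraries. All 76 genes passed the filter in each fit. edgeR 4.0.16 and DESeq2 1.42.0 on recovered reads were alternatives, beside other pseudocounts, filters and scalings, adding the reads of copies, the replicate block, other libraries in the fit and leaving out each library. The fits were also run on simulated counts with known changes and the same dispersion for every gene. This does not show how they perform on these libraries. Copies were sought with blastn 2.17.0 among GENCODE transcripts, and 5′ windows come from RefSeq promoters.

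The genes and lists were chosen with earlier results of these data known. Genes were named by role (stalk, ubiquitin fusion, Mdm2-binding, S6 kinase substrate, Diamond-Blackfan, X-linked and others), when among the 6 largest called changes per direction and comparison, when among the 3 furthest above or below the median of the 76 between MC38 cells and skin or wild-type tumors, or when at 3 reads or fewer in a library. Rps16, the largest shares on copies and genes named at an unadjusted p were added after their values were seen, as were the most variable genes. Some genes are not reported here by name.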

Additional observations from a re-analysis of the deposited data

How the results depend on the processing

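Scaling decided the sides of the comparisons with skin, since the normalized counts of skin sum to more than those of the other libraries. Between MC38 cells and skin the median log2 fold change of the 76 genes was 0.27 with the same total, 0.31 with the same total over other genes, -0.0045 by edgeR and -0.045 by DESeq2, the number called was 9 without the trend and 14 with all libraries in the fit, and Rps25 (0.0611 and 0.097), Rpl11 (0.0039) and Rpl22 (0.0218) reversed under a total scaling. Over all genes 2907 were higher and 6408 lower without the trend, and 3587 and 6120 with all libraries in the fit. Between wild-type tumors and skin the number called and the median were 43 and 0.48 with the same total, 45 and 0.54 with the same total over other genes, 24 and 0.29 with the same upper quartile and 25 and 0.26 by edgeR. Over all genes these settings gave, in the same order, 5633, 5922, 4527 and 4298 higher and 4031, 3892, 4554 and 4974 lower. Against MC38 cells, tumors labelled RAG1-/- had 5 genes called without the trend, 13 by DESeq2 and 16 with only the groups compared in the fit, and wild-type tumors had 14 by DESeq2 and 13, with a median of 0.39, at the same upper quartile. Over all genes these settings gave, in the same order, 2120, 2542 and 2562 higher and 869, 1198 and 1441 lower in tumors labelled RAG1-/-. In wild-type tumors they gave 2935 and 3066 higher and 1470 and 590 lower. DESeq2 called 2 genes between day 23 and day 13 of the tumors labelled RAG1-/-, where it called 90 higher and 116 lower over all genes. Where scaling does not account for a shift by its construction, the cause was not tested.

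The shares of reads moved with what was counted: with named pseudogenes added they were 8.21% in skin and 10.6% in MC38 cells; without mitochondrial and hemoglobin genes 8.64%, 10.96% and, in tumors labelled RAG1-/-, 12.2%; with near-identical copies added, chosen after seeing the data, 8.33%, 10.8% and 11.9%. Over the genes without such a copy, also chosen afterwards, they were 2.95% in skin, 3.94% in MC38 cells, 4.17% in wild-type tumors and 4.19% in tumors labelled RAG1-/-.

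Leaving out each library in turn gave 5 to 8 genes between MC38 cells and skin (median -0.19 to 0.0025), 0 to 9 between tumors labelled RAG1-/- and MC38 cells (0.16 to 0.25), 0 to 14 between wild-type tumors and MC38 cells (0.16 to 0.29), 8 to 21 between wild-type tumors and skin (-0.0064 to 0.22), and 0 to 0 in the 4 comparisons between tumors. Where a group was left with 1 library, that library was assumed to vary like the rest. In those fits fewer genes were also called over all genes tested. With the replicate number as a block, 25, 7, 5 and 15 genes were called in these 4 comparisons in the same order and 0 between tumors. Over all genes the block gave 3592, 2159, 2482 and 3772 higher and 7079, 950, 1115 and 5506 lower in these 4 comparisons. Same-numbered libraries share only a number, since tumors are different mice and their deviations correlated between -0.24 and 0.25.

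Depth limits Rpl24 and Rps6, most of whose family reads lie on copies. Copies outside the annotation were not searched for, and the skin and MC38 groups have 2 libraries each.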
